A study of Homo sapiens with 4 samples.

Results

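The histone acetyltransferase genes described here are EP300, CREBBP, KAT2A, KAT2B, KAT5, KAT6A, KAT6B, KAT7, KAT8 and NCOA3, 10 of 19974 protein-coding genes. They were taken by gene symbol from tables of regions enriched in acetylation of histone H3 at lysine 27 (H3K27ac), measured by chromatin immunoprecipitation (IP) and sequencing. The cells were KGN, an established granulosa tumor cell line of the human ovary. The testosterone condition received 10 um testosterone, as the labels write it, for 24 h, and the control condition carries the label control with no vehicle named. Each condition had 1 IP library and 1 input library of sheared chromatin, and its regions were called on that IP against its own input. With a single IP in each condition, differences between them could not be set against replicate error, and none was tested. The members held 0 of 604 testosterone regions and 16 of 19110 control regions, and 13 of the 16 lay within 1 kb of an annotated gene start and are called promoter regions.

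Histone acetyltransferases move an acetyl group from acetyl-CoA onto lysines, which loosens the hold of histones on DNA and gives bromodomain proteins a place to bind. EP300 (p300) and CREBBP (CBP) are near relatives that write most H3K27ac at enhancers and promoters. KAT2A and KAT2B (GCN5 and PCAF) chiefly acetylate lysine 9 of histone H3, within the SAGA and ATAC complexes. KAT5, KAT6A, KAT6B, KAT7 and KAT8 form the MYST family, which acts on histone H4 and on other lysines of histone H3. NCOA3 is a coactivator of steroid hormone receptors, the androgen receptor among them, that brings p300 and CBP to the receptor. The mark measured here is thus made by the products of some of these genes, and the tables show where the mark itself lay on them.

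Promoter sequence is shown for the pair of genes with the largest control signal and for the one with the smallest, so that the place of the mark relative to a gene start can be read on the bases. Each window is from RefSeq on GRCh38.p14 and runs 5′ to 3′ on the plus strand, from 250 bases before a gene start to 50 after it. Capitals are bases inside a control H3K27ac region. No base of these windows lay in a testosterone region. In KAT5 (chr11:65712002-65712301) the control region begins at base 194 and covers the last 107 bases. In EP300 (chr22:41092342-41092641) it covers all 300. In NCOA3 (chr20:47501637-47501936) it covers none, and the control region begins 195 bp past the end of the window. The KAT5 window is set on a start other than the RefSeq gene start (65712018) from which the map of regions is drawn. That RefSeq start lies among the lower-case bases, 177 bp before the KAT5 control region begins. The EP300 and NCOA3 windows are set on the RefSeq gene starts of that map.
KAT5: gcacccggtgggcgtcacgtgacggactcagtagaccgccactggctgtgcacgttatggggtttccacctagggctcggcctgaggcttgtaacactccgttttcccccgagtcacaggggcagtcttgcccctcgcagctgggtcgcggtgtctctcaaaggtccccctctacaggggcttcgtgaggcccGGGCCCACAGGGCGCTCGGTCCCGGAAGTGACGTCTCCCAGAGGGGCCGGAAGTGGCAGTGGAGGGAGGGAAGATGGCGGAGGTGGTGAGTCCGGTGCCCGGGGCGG
EP300: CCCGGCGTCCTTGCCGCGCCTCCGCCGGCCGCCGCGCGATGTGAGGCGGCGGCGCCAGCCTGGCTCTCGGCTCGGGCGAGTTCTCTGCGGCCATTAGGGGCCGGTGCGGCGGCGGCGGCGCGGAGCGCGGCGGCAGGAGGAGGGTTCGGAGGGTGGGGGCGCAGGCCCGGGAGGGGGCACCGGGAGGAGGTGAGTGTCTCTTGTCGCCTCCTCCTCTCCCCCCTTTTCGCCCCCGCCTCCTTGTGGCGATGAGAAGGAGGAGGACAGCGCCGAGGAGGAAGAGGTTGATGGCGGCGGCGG
NCOA3: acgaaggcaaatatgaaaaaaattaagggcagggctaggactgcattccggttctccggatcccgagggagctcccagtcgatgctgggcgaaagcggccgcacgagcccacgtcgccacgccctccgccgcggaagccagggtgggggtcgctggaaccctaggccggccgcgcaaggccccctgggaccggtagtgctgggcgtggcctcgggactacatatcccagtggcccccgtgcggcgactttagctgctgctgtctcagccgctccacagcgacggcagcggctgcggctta

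Windows were found for 8 members, 11 windows in all, at EP300, CREBBP, KAT2A, KAT2B, KAT5, KAT6B, KAT7 and NCOA3. Their G and C content ran from 57.7% at KAT7 to 82.0% at CREBBP. The median over the 8 genes, with the first listed window of each, was 68.2%, beside 62.7% over 15812 genes, 66.7% over those with a control promoter region and 59.3% over the others. CpG steps numbered 15 to 50 in a window, with a median of 29.5 over the 8 genes, beside 22 over the 15812 and 28 over those with a control promoter region. The GC box GGGCGG, searched on both strands as were the other words, lay in 7 of the 11 windows. By gene it lay in 4 of 8: CREBBP, KAT2B, KAT5 and KAT6B. It lies in 58.5% of all 15812 windows and in 73.7% of those of genes with a control promoter region. Those shares take 1 window for each gene, so counts over the 11 member windows do not compare directly with them. KAT6B had 10 copies in a single window. The ETS word CCGGAAG lay in the windows of KAT5, at bases 215 and 240 and so inside the capitals above, and of KAT7, at base 210. That word lies in 14.2% of all windows and in 19.0% of those of genes with a control promoter region. CCAAT lay in 1 window of KAT6B and lies in 36.3% of all and 36.1% of those. The cyclic AMP response element (TGAC joined to GTCA) and the NRF1 word (CGCA joined to TGCG) lay in no member window, beside 2.59% and 2.88% of all and 3.42% and 4.0% of those. The full androgen response element, AGAACA and TGTTCT with 3 bases between them, lay in none of the 15812 windows. These are matches of letters and do not place a factor.

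The study compared the mark after testosterone with the mark in control cells, and its title concerns loss of acetylation at this lysine. With testosterone 0 of 10 members had a promoter region, beside 0.931% of all protein-coding genes, and in control cells 9 of 10 had one, beside 41.0% of all. Of all genes with a control promoter region, 1.92% also had a testosterone promoter region, so a count of 0 among 9 such members is near that background. No testosterone region lay within 10 kb of a member or of its control regions, where 3.36% of all genes had one. KAT2A was the member without a promoter region in either table.

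The values below are IP fragments covering the summit, the highest point of a region. The control pileups deposited by the authors are multiples of 0.937 to within 0.00956 fragments, and dividing by that step returned whole fragments, while the testosterone pileups are whole as deposited. Mean coverage of the IP, read from the lowest background of each table, was 1.155 fragments per base with testosterone and 1.160 in control cells, and the counts are set side by side on that reading alone, since total reads were not used. Intervals are exact 95% Poisson intervals, and they cover counting error only. Fold enrichment is the authors' ratio of the pileup plus 1 to the local background plus 1, and it belongs to its own table.

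EP300 had no testosterone region and 3 control regions. Its wide promoter region (chromosome 22, 41091748 to 41093254, 1507 bp) overlapped the start, with 35 fragments at the summit (24.4 to 48.7) and a fold of 11.3. A narrower region of 298 bp (41091114 to 41091411) lay 336 bp upstream of it, with 48 fragments (35.4 to 63.6) but a fold of 5.11. More fragments thus went with a smaller fold at the upstream region, where the local background was 8.0 fragments, beside 2.0 at the wide one. The third lay between genes 68914 bp upstream (41022262 to 41022873), with 21 fragments (13 to 32.1) and a fold of 4.62. By width EP300 stood at percentile 95.6 of the 8189 genes with a control promoter region, the highest of the members.

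CREBBP, the near relative of EP300, had no testosterone region and 1 control region (chromosome 16, 3880912 to 3881162). At 251 bp it was the narrowest of the 16, at percentile 3.50 of genes by width. It had 28 fragments at the summit (18.6 to 40.5), above the median gene, and the smallest fold of any member promoter, 3.40. The local background there was 7.0 fragments, at percentile 97.8 of control promoter regions. The region ended 186 bp upstream of the start that the authors' annotation uses.

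KAT2A and KAT2B, the catalytic subunits of SAGA and ATAC, had 1 control promoter region between them. No region of either table carried the symbol KAT2A. The nearest control region lay 417 bp past its 3′ end (chromosome 17, 42111788 to 42112694), with 23 fragments and a fold of 4.51, and 8.67 kb from the start of KAT2A. The authors' annotation credits that region to DHX58, an RNA sensor of the RIG-I family. KAT2B had no testosterone region and 1 control promoter region (chromosome 3, 20039760 to 20040105, 346 bp) with 17 fragments (9.90 to 27.2) and a fold of 4.23. Its −log10 q of 3.96 was the lowest among member promoters.

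KAT5, the acetyltransferase TIP60 of the NuA4 complex and of the DNA damage response, had no testosterone region and a pair of control promoter regions. The region over the start used by the authors (chromosome 11, 65712195 to 65712479, 285 bp) began 177 bp past the RefSeq gene start. It had the most fragments of any member region, 51 (38 to 67.1), at percentile 99.1 of genes, and a fold of 8.65. The upstream region (65711293 to 65711829, 537 bp) had 15 fragments (8.40 to 24.7) and a fold of 5.11. The gap between them, 365 bp, holds all the lower-case bases of the KAT5 window shown above. A further control region 908 bp past the end of KAT5 is credited to RNASEH2C, a subunit of ribonuclease H2, with 39 fragments and a fold of 4.69 on a background of 7.0.

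KAT6A (MOZ) and KAT6B (MORF), paralogs that acetylate lysine 23 of histone H3, had no testosterone region. In control cells KAT6A had 1 promoter region (chromosome 8, 42052228 to 42052829, 602 bp) with 28 fragments (18.6 to 40.5) and a fold of 13. It had as many fragments as CREBBP, and its fold was larger over a local background of 1.09 fragments, close to the lowest in the table. KAT6B had 3 control promoter regions on chromosome 10, and 5.09% of genes with a control promoter region had at least 3. They ran over 3038 bp with gaps of 454 and 479 bp. The first (74824369 to 74825185) and the second (74825640 to 74826126) had 22 fragments each (13.8 to 33.3), with folds of 7.57 and 5.40. The third (74826606 to 74827406) had 35 fragments (24.4 to 48.7) and a fold of 9.51, and its summit lay 131 bp upstream of a start other than the one used for the first.

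KAT7 (HBO1), which acetylates histone H3 at lysine 14 and works at replication origins, had no testosterone region and 1 control promoter region. That region (chromosome 17, 49788622 to 49789080, 459 bp) had 37 fragments (26.1 to 51) and the largest fold of any member, 14.8, at percentile 99.2 of genes. An end of FAM117A lies within 1 kb of it, so its mark cannot be assigned to KAT7 alone.

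KAT8 (MOF), which acetylates histone H4 at lysine 16, had no testosterone region and 2 control regions on chromosome 16. Its promoter region (31117601 to 31117892, 292 bp) had 43 fragments (31.1 to 57.9) and a fold of 9.22. It combined percentile 97.2 by fragments with percentile 10.1 by width. An end of BCKDK, the kinase that restrains branched-chain amino acid breakdown, lies within 1 kb of it. The inner region (31130271 to 31130664, 394 bp) had 14 fragments (7.65 to 23.5), a fold of 3.53 and the lowest −log10 q of all 16, 2.74. It began 2999 bp past the start used by the authors, whose annotation classes it as promoter at 2 to 3 kb. From the RefSeq gene start it lay 12607 bp away.

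NCOA3 had no testosterone region and 2 control regions on chromosome 20. The promoter region (47502131 to 47502426, 296 bp) began 190 bp past the annotated start and had 15 fragments (8.40 to 24.7), the fewest of any member's strongest promoter region, with a fold of 5.27. A region in intron 1 of 22 (47578129 to 47578512, 384 bp), 76.2 kb past the start, had 19 fragments (11.4 to 29.7) and a fold of 8.35. The intervals of the intron and promoter regions overlap, and a difference between their counts was not tested.

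**Figure D1:**
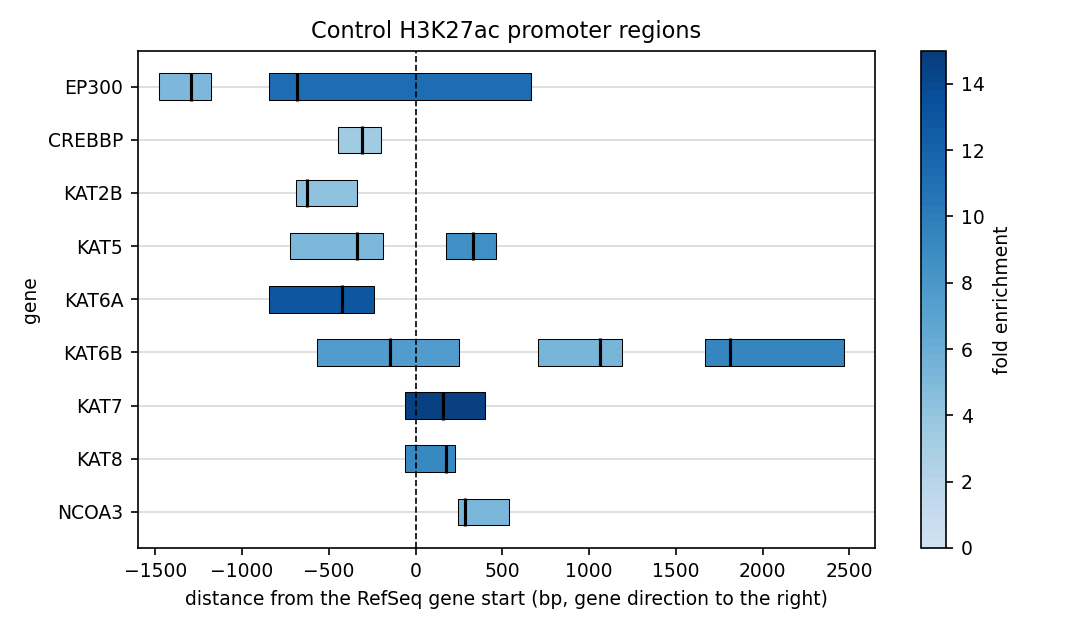
Control H3K27ac promoter regions of 9 acetyltransferase genes, drawn from the RefSeq gene start (dashed line) in the direction of the gene, in bp; boxes are regions, black ticks are summits and shading is the authors' fold enrichment. EP300, KAT5 and KAT6B have more than 1 box, the EP300 box over the start is the widest at 1507 bp, and no testosterone region falls on any of these genes.

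The map of regions around gene starts shows marks of different shape on one gene family. Of the 13 promoter regions 7, on EP300, KAT2B, KAT5, KAT6B, KAT7 and KAT8, overlapped the start used by the authors. More than 1 promoter region was found on 3 of 9 members (33.3%), beside 25.3% of all genes with one. Regions under 300 bp made up 5 of the 13, beside 16.6% of all control promoter regions.

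Ranked by the fragments of the strongest control promoter region, the order was KAT5 (51), EP300 (48), KAT8 (43), KAT7 (37), KAT6B (35), CREBBP and KAT6A (28 each), KAT2B (17) and NCOA3 (15). Neighbors in this order had overlapping intervals. The lower bound of KAT5, 38, lay above the upper bounds of KAT2B, 27.2, and NCOA3, 24.7. The median over 9 members was 35 fragments, beside 21 over the 8189 genes (interquartile range 16 to 27), and 7 members lay above the third quartile. The median fold was 9.22 beside 5.86 (4.62 to 7.51), with 6 members above the third quartile. Widths lay lower: the median of the widest region was 459 bp, beside 552 bp (371 to 841), and 6 of 9 members lay below that median.

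**Figure D2:**
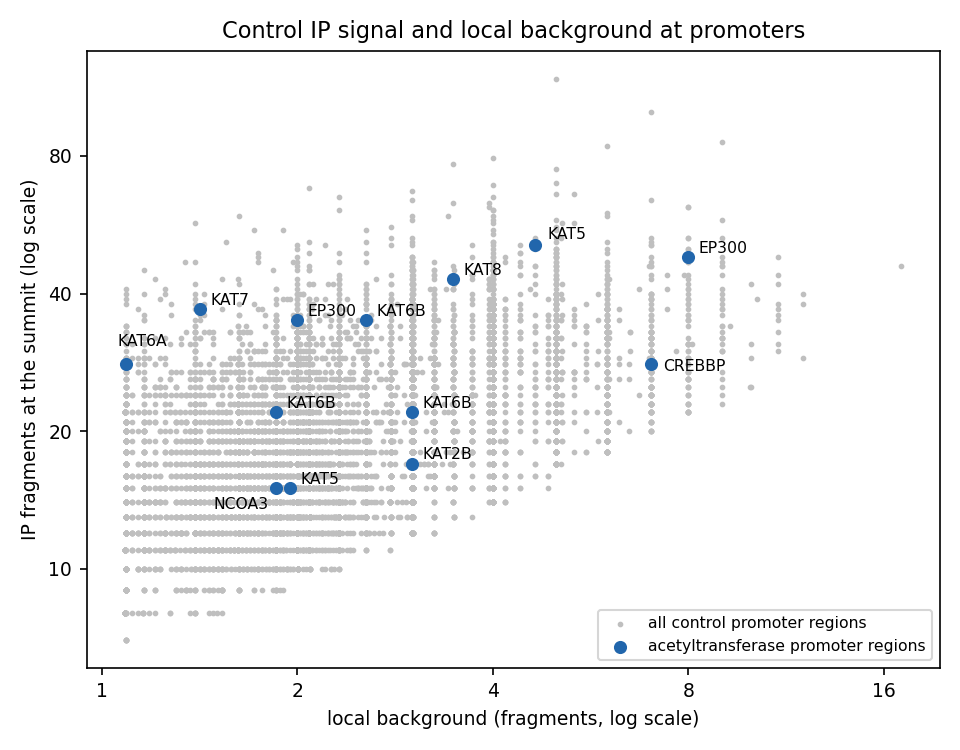
IP fragments at the summit against local background, both in fragments on log axes, for 10934 control promoter regions (gray) and the 13 of the acetyltransferase genes (blue). CREBBP and KAT6A share 28 fragments and lie far apart along the background axis, at 7.0 and 1.09.

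The divisor of the fold is the local background plus 1, and that background varied widely among the members. The median background was 2.55 fragments at the 13 member promoter regions and 2.29 at all control promoter regions (1.85 to 3.06). It was highest at the upstream EP300 region (8.0, percentile 99.5), at CREBBP (7.0) and at KAT5 (4.64, percentile 90.4), and lowest at KAT6A (1.09, percentile 5.07) and KAT7 (1.41, percentile 12.9). At 6 of the 16 member regions the background was a whole number to within 0.01, as it was at 35.1% of control regions where 2% would be by chance, and such values were read as input fragments lying over the summit itself.

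The testosterone table was shallow in signal as well as short. Its pileups ran from 8 to 35 fragments with a median of 10, and only 1 region exceeded 28. Its highest fold was 7.89. In control cells 4 members (KAT5, EP300, KAT8 and KAT7) had more than 35 fragments, as did 7.63% of genes with a control promoter region. A control fold above 7.89 was found at 6 members and at 20.5% of those genes. Folds of the control and testosterone tables were not put on a common scale, so the fold counts only describe the control table. The testosterone table also began at a stricter −log10 p, 4.92 against 3.71 in control. All 16 member regions of the control table pass 4.92, the lowest being the inner KAT8 region at 5.47, and 89.9% of all control regions do.

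How many fragments could have gone uncalled with testosterone was worked out for each member region from that lowest −log10 p. The local background of the testosterone libraries at these sites is not in its table, so that of the control table was used, times 1.06, the ratio of the lowest backgrounds. On this assumption, and by −log10 p alone, the most fragments that would stay uncalled ran from 7, at KAT6A and the NCOA3 intron, to 22, at the upstream EP300 region. All 16 control counts lay above their limit, and so did 97.2% of all control promoter regions. By gene all 9 members with a promoter region lay above it, beside 98.0% of the 8189 genes with a control promoter region. That the counts lie above their limits follows nearly from the way the limit is built, on the control background and a threshold that these regions pass, and it says nothing of the testosterone signal.

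The limits rest on the summit −log10 p and an assumed background, and they are not measurements. Caller settings were not given, so any rule on region width is left out, and the limits are not strict bounds. As a description of counting error alone, with no test between the conditions, each limit was given a Poisson interval as if it were a count. For 6 genes the interval of the control count lay above the interval of the limit itself, beside 15.7% of all genes with a control promoter region. Apart from the threshold and the scale factor, both intervals rest on control values. The share therefore describes control counts and backgrounds, and it too says nothing of the testosterone signal. At KAT5 the limit was 16 fragments with testosterone (upper bound 26.0), against 51 in control (lower bound 38). KAT7 had a limit of 8 with testosterone (upper bound 15.8), against 37 in control (lower bound 26.1). At KAT8 these values were 13 with testosterone (22.2), against 43 in control (31.1). The others were KAT6A, the third region of KAT6B and both promoter regions of EP300. For CREBBP, a limit of 20 with testosterone against 28 in control, the intervals overlapped. The same held for KAT2B (12 against 17) and NCOA3 (9 against 15), and for the 6 weaker or outlying regions of EP300, KAT5, KAT6B, KAT8 and NCOA3. With a background 1.5 times as high 15 of the 16 regions stayed above the limit, all but the inner KAT8 region, and with a doubled one 13, without CREBBP and KAT2B as well. Whether the background at these sites differed between conditions was not tested.

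**Figure D3:**
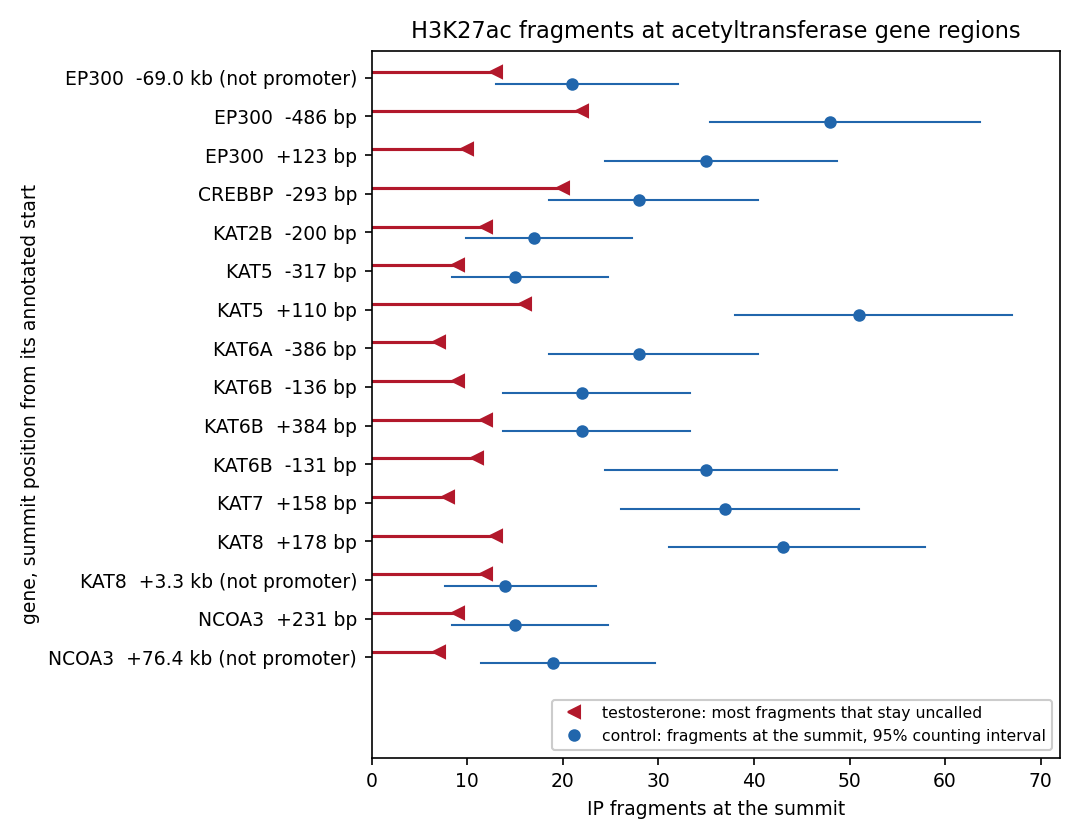
IP fragments at the summit of the 16 control regions of the acetyltransferase genes (blue, with 95% Poisson intervals). Above each, in red, is the most fragments that would stay uncalled with testosterone by −log10 p alone. The red values rest on an assumed background and are not measurements. Rows give the gene and the summit's distance from the start in the authors' annotation; The gap between limit and count is wide at KAT7 and at the start regions of KAT5 and KAT8 (16 against 51 and 13 against 43), and narrow at the inner KAT8 region (12 against 14), CREBBP, KAT2B and the upstream KAT5 region (9 against 15).

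The nearest testosterone regions lay well outside the members. For 4 genes they were within 200 kb: KAT2A at 95.1 kb (assigned to DNAJC7, 10 fragments), EP300 at 121 kb (ZC3H7B, 11), NCOA3 at 143 kb (ZMYND8, 11) and KAT5 at 170 kb (CCDC85B, 14). CREBBP was 216 kb and KAT7 561 kb away from one. KAT8, KAT6B, KAT2B and KAT6A were over 1 Mb away, at 1.30, 2.50, 6.41 and 12.0 Mb. The median distance was 388 kb for the members, beside 1039 kb for genes with a control promoter region and 1437 kb for all genes.

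Genes that work with these enzymes gave a fuller view of the same contrast. In 7 lists of 79 partner and related genes, 2 (2.53%) had a testosterone promoter region and 58 (73.4%) a control one, beside 0.931% and 41.0% of all genes. A testosterone region within 10 kb was found for 6 of the 79 (7.59%), beside 3.36%. Here counts this small describe the lists and set none of them apart.

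Other acetyltransferases had a testosterone promoter region in 1 of 9 genes and a control one in 6 of 9. That gene was ELP3, the catalytic subunit of Elongator, with 9 fragments with testosterone in a region 434 bp from its control region, which had 16. The strongest control promoters were those of HAT1, which acetylates new histone H4, with 32 fragments, NCOA2, a steroid receptor coactivator like NCOA3, with 30, and CLOCK, of the circadian clock, with 30. NCOA2 also had a testosterone region of 9 fragments in its first intron, 68154 bp from its control promoter region. The intron region of NCOA3 was in the control table alone.

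Subunits of SAGA and ATAC, the complexes of KAT2A and KAT2B, had a testosterone promoter region in 0 of 18 genes and a control one in 13. TADA3 had 36 fragments in control, SGF29 34 and TAF6L 33. Among the 15 NuA4 subunits that surround KAT5, 0 had a testosterone promoter region and 11 a control one, led by EPC1 with 40 fragments and a fold of 17.1. MORF4L1, a chromodomain subunit, had nearly as many, 38, with a fold of 3.05 over a background of 11.0, and MRGBP had 35. RUVBL2, an ATPase of the complex, had a testosterone region of 10 fragments 204 bp from its gene, which the annotation assigns to GYS1. That region overlapped a control region.

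Scaffold subunits of the KAT6A, KAT6B and KAT7 complexes, of which JADE proteins pair with KAT7, had a testosterone promoter region in 1 of 9 genes and a control one in 8. The 1 was ING5, a reader of methylated histone H3, whose testosterone region (chromosome 2, 241702461 to 241702700) had the same ends as its control region, with 10 fragments with testosterone, against 24 in control. JADE1 had 25 fragments and BRPF1 23 in control. The MSL and NSL subunits that direct KAT8 had a testosterone promoter region in 0 of 11 genes and a control one in 7, with 47 fragments at MSL2, 36 at KANSL2 and 35 at HCFC1.

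Partners of p300 and CBP had a testosterone promoter region in 0 of 9 genes and a control one in 6. CITED2, which binds both enzymes, had 32 control fragments in a region of 1916 bp, CRTC2, a CREB coactivator, had 29, and CARM1, an arginine methyltransferase, had 21. Testosterone regions assigned to neighbors lay 2416 bp from CRTC2 (DENND4B, 10 fragments) and 3237 bp from NCOA6 (TP53INP2, 8 fragments). Genes that supply acetyl-CoA had a testosterone promoter region in 0 of 8 and a control one in 7, with 26 fragments at SLC25A1, the citrate carrier, 25 at DLAT, a subunit of pyruvate dehydrogenase, and 21 at CRAT, carnitine acetyltransferase.

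The enzymes that remove acetyl groups and the proteins that read them were counted in the same way. Class I and IIa deacetylases and their corepressors had a testosterone promoter region in 1 of 13 genes and a control one in 9. At RCOR1, a corepressor, the testosterone region had 10 fragments and overlapped a control region, and the strongest control promoter region there had 30. HDAC5 had a testosterone region of 13 fragments 2637 bp from a start, and that region overlapped a control region. Strong control promoters of this list were SIN3A with 53 fragments over a background of 8.0 and HDAC4 with 38. BET bromodomain and elongation factors also had a testosterone promoter region in 1 of 13 genes and a control one in 9. BRD2, a reader of acetylated histones, had 12 fragments with testosterone (fold 5.85 in its table), against 32 in control (10.3 in its table), in overlapping regions. HEXIM1, an inhibitor of elongation, had 38 control fragments and AFF4, a scaffold of the super elongation complex, 26.

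**Figure D4:**
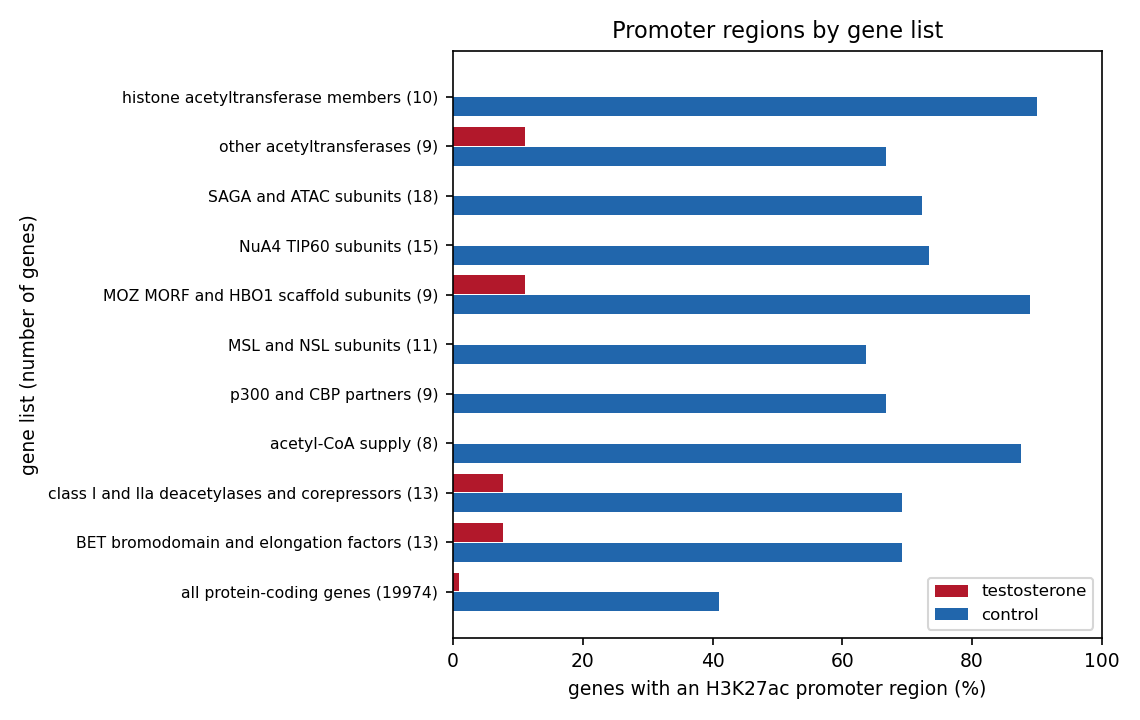
Share of genes with an H3K27ac promoter region, in percent, for the 10 acetyltransferase genes, 9 lists of partner and related genes, and all 19974 protein-coding genes; red bars are testosterone and blue bars control. Control bars of every list lie above the 41.0% of all genes, and testosterone bars stand for 1 gene each in the 4 lists that have one, beside 0.931% of all genes.

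Marker genes for the cell label were looked up among the same regions. Of 6 genes typical of granulosa lines, FOXL2, KRT8, KRT18 and VIM had a control promoter region and NR5A1 and WT1 had none. Of 6 genes of surface epithelium, blood and endothelium, EPCAM had one and CDH1, PTPRC, CD68, PECAM1 and CDH5 had none. VIM and EPCAM also had a testosterone promoter region. Of all protein-coding genes 41.0% had a control promoter region, and counts this small do not settle the cell label.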

How the data were processed

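H3K27ac regions were measured in KGN cells in 1 testosterone and 1 control IP, each set against its own input. Per the submitters' processing notes, Bowtie2 2.0, MACS2, ChIPseeker and bedtools were used, with hg38 and mm10 as builds. Caller settings were not given in the sources used here. Positions were read as GRCh38. Per the file headers, the deposited values are the pileup, a signal in fragments, fold enrichment, a ratio to the local background, and significance as −log10 p and −log10 q. Headers of both significance columns were lost in the testosterone table, and the columns were identified by their order. Total reads were not used here, so depth was read from the lowest backgrounds.

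The local background was solved from fold and pileup, and a Poisson upper tail on it gave back every −log10 p to within 0.00385 in control and 5.47e-05 with testosterone. The uncalled limit was the largest whole count whose tail stayed under the lowest testosterone −log10 p. Promoter regions lay within 1 kb of the start of the authors' nearest gene. Symbols matched RefSeq for 482 of 488 testosterone and 9627 of 9767 control symbols. Percentiles and medians take each gene's strongest or widest promoter region.

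Named were all members and, from each list, the 3 genes of largest control pileup and those with a testosterone region within 10 kb, and a gene that this rule takes is not reported here. Members and lists were chosen with earlier results of these data known. Promoter regions are credited to 1 gene each, so a shared promoter counts once. The alternatives were stricter thresholds, other windows and distances, gene bodies, and other choices of region. The code was tested on simulated data. Python 3.11.15, pandas 2.3.3, numpy 2.4.6, scipy 1.17.1 and matplotlib 3.10.9 were used.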

Additional observations from a re-analysis of the deposited data

How the results depend on the processing

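No paired analysis was possible because each condition had 1 IP library. Of 31 alternatives, 31 left their result within 1.5 times its value, or its median pileup within its counting interval. No testosterone region was found at a member under any of them, but only the distance of 50 kb could have added one. The other testosterone alternatives were stricter or stayed within the 10 kb already found empty. Their results are among the 31 and could not have moved. Control promoter regions remained at 8 members at a −log10 q of at least 5 (without KAT2B), 6 at 10 (without CREBBP, KAT2B and NCOA3) and 8 at a fold of at least 4 (without CREBBP), beside 30.6%, 14.4% and 35.1% of all genes. Counting regions anywhere on a gene or up to 1 kb outside it gave 10, with the DHX58 region for KAT2A, beside 51.4% of all genes. The median pileup ran from 32.78 to 37.46 and the median width from 459 to 530.5 bp. The 3 alternatives on the uncalled limit were chosen after seeing the data. Called testosterone regions had pileups of 8 to 35, and a member without a region may carry signal below its limit. Signal above the limit could also go uncalled if the caller applied a rule on width, which was not tested.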
